A study of Mus musculus with 4 samples.

Results

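Injury-activated microglia, the brain-resident macrophages that carried several transcripts of an injury program, were examined in the ischemic mouse hemisphere. A cell barcode was taken as one of them when it had at least 500 unique molecular identifiers (UMIs, 1 per captured mRNA), at least 250 genes and under 20% mitochondrial UMIs, and met 4 further conditions. It had a UMI of at least 3 of the 5 microglial genes P2ry12, Sall1, Gpr34, Siglech and Tmem119, no UMI of the endothelial gene Cldn5, a UMI of at least 3 of the 6 injury genes Igf1, Cd5l, Mmp12, Cd72, Ch25h and Fat3, and a UMI of at most 1 of the 6 cycling genes Mki67, Top2a, Cenpe, Prc1, Ccna2 and Cenpf. Of 60942 kept barcodes, 14559 met the conditions without the injury genes and are called gated microglia here, and 3302 of these were injury-activated. The other 11257 gated microglia had 2 or fewer injury genes. The cells were thus chosen by detected UMIs of these genes in the same cells that are described, so differences between injury-activated and other gated microglia are given as descriptions with no test.

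Microglia sense their surroundings through receptors such as P2ry12 and depend on signaling through Csf1r. Around damaged tissue they are known to lower this surveillance program and to raise genes for phagocytosis, lysosomes and lipid handling, in a state best known from demyelination and neurodegeneration. Igf1 encodes insulin-like growth factor, a survival factor for neurons and oligodendrocytes, Cd5l a secreted scavenger protein that inhibits macrophage apoptosis, and Mmp12 the macrophage elastase. Cd72 encodes a lectin-like inhibitory receptor, Ch25h the enzyme that makes an oxysterol from cholesterol, and Fat3 an atypical cadherin.

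The study compared 2 groups of adult mice on day 3 of a stroke model, transient occlusion of the middle cerebral artery (tMCAO). The 2 Ms4a3 cKO libraries came from mice that the series text names Htr2b ERCre; Ms4a3-Cre, with Htr2b, a serotonin receptor gene, as the target, and the 2 Flox libraries from Htr2b flox/flox littermates. Per the labels, mice were given tamoxifen, then left for a washout of 3 days, before the occlusion, and the background is C57B6. Cells of the hemisphere on the injured side were captured without enrichment and with barcoding of mRNA at its 3′ end. Ms4a3 is known as a gene of progenitors of granulocytes and monocytes, and the labels do not settle which of the Cre alleles recombined Htr2b, or in which cells. The sex of each library is not given. Nothing in the labels says that each library is a separate animal. The p-values therefore measure the spread between 4 samples, part of which may be technical, and for 2 against 2 samples an exact permutation p cannot fall below 0.333.

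The injury-activated cells numbered 513 and 875 in the cKO libraries and 1141 and 773 in the Flox libraries, with summed depths of 5352650 to 10996385 UMIs. They were deeper than the other gated microglia: the median was 10051 and 10309 UMIs per cell in cKO and 8928 and 10086 in Flox libraries, against 4420 and 4473 and 5374 and 4599. A deeper cell has more chances to show 3 injury genes, so levels are also given after thinning to 2000 UMIs per cell. No injury-activated barcode recurred between libraries, and 1.60 to 3.16% of them were predicted doublets. Flox 1 stood apart from the other libraries: over genes, log levels of Flox 2 correlated at 0.971 and 0.978 with cKO 1 and cKO 2 and at 0.957 with Flox 1. The SD of the log2 difference between replicates was 0.42 in cKO and 0.71 in Flox.

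The label of microglia was checked on markers that the rule did not use. The summed level of 8 such microglial markers stood at 15512 and 15989 CPM (UMIs relative to all UMIs of a class in 1 library, scaled to a fixed total) in cKO and 26888 and 17374 CPM in Flox libraries, against 1707 and 2361 CPM in cKO and 6112 and 3689 CPM in Flox libraries in 3602 monocyte-derived cells, gated on 3 or more of 6 monocyte and macrophage genes and no UMI of the 5 microglial genes. The 12 markers of monocyte-derived macrophages summed to 4485 and 3889.8 CPM in cKO and 6321 and 6064 CPM in Flox libraries in the injury-activated cells, against 4276 and 3268 CPM in cKO and 6377 and 5940.2 CPM in Flox libraries in the other gated microglia, and to 39222 and 38769 CPM in cKO and 52852 and 38259 CPM in Flox libraries in the monocyte-derived cells. None of the 12 was at 0 in a library, and the gate of the monocyte-derived cells itself used macrophage genes. At 2000 UMIs per cell, 48.3 and 39.4% of injury-activated cells in cKO and 26.4 and 44.0% in Flox libraries had a UMI of 3 or more of the 12, against 23.7 and 14.6% in cKO and 10.1 and 19.2% in Flox libraries of other gated microglia and over 99% of monocyte-derived cells. Markers of dendritic, T and NK cells summed to under 8 CPM each. Other lists were higher, with border macrophage markers at 379 to 578 CPM and oligodendrocyte markers at 135 to 412 CPM. Neutrophil markers summed to 107 to 181 CPM, astrocyte markers to 93.0 to 116, choroid plexus markers to 17.6 to 248 and endothelial markers to 29.3 to 74.0 CPM. The part that macrophage RNA, RNA of other cell types or pairs of cells played in the levels that follow was not tested.

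Promoter windows of injury genes and of Htr2b are shown because these genes define the cells or, for Htr2b, stood higher in them in every library. Each window holds the 150 bases before the RefSeq start on GRCm38.p6, read 5′ to 3′ on the gene's own strand. Capitals mark the letters found in a search of both strands for TGAGTCA (AP-1), TGACGTCA (a cAMP response element), GAGGAA (the PU.1 core) and TATAAA (the TATA box), of which the last occurred in none of the windows.
Mmp12, second of 2 starts, chr9:7347224-7347373, plus strand: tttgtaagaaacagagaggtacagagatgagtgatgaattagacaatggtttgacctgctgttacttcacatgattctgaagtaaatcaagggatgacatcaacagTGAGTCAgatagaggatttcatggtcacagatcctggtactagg
Ch25h, chr19:34475149-34475298, minus strand: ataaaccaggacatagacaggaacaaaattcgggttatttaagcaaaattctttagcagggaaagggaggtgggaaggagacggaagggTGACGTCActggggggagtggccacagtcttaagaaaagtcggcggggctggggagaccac
Igf1, chr10:87860961-87861110, plus strand: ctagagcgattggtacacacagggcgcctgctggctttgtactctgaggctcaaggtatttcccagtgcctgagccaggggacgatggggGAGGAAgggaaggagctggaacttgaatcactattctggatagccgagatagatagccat
Cd5l, chr3:87357731-87357880, plus strand: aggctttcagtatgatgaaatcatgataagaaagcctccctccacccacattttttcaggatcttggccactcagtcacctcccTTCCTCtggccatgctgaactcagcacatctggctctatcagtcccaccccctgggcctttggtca
Htr2b, chr1:86111981-86112130, minus strand: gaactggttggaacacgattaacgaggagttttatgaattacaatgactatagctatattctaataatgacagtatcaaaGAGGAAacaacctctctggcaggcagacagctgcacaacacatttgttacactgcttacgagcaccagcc
The AP-1 letters began 44 bases before the second Mmp12 start, and the cAMP response element 61 bases before the Ch25h start. The PU.1 core letters, which PU.1 is known to bind in macrophages, began 60 bases before the start in Igf1, 66 in Cd5l, 47 in Cd72 and 70 in Htr2b, and 86 before the first Mmp12 start. In the Fat3 window no searched motif occurred. Of 32851 windows of all genes, 2.84% hold AP-1, 1.36% the cAMP response element, 14.5% the PU.1 core and 7.57% the TATA box. These matches describe letters and not binding.

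The genes of the rule varied between libraries within the injury-activated cells, and the values are descriptions. The rule was set with the genotype difference of its genes known, and these genes decide which cells are included. Of 11685 genes outside the rule, both cKO libraries lay below both Flox libraries for 15.6% and above them for 29.3%. Igf1, the growth factor, stood at 327 and 496 CPM in cKO and 1124 and 908 CPM in Flox libraries, and 82.7 and 87.5% in cKO and 92.6 and 90.7% in Flox libraries of cells had a UMI. Cd5l, the secreted scavenger protein, stood at 338 and 399.8 CPM in cKO and 787 and 594 CPM in Flox libraries. Both cKO libraries lay below both Flox libraries for these genes, although Cd5l was detected in 70.2 and 74.3% of cKO and 65.9 and 68.4% of Flox cells. Ch25h, the oxysterol enzyme, stood at 224 and 285 CPM in cKO and 996 and 579 CPM in Flox libraries, with a UMI in 55.2 and 54.3% in cKO and 86.6 and 75.5% in Flox libraries of cells. Mmp12, the elastase, stood at 14.9 and 19.1 CPM in cKO and 114 and 130.5 CPM in Flox libraries, with a UMI in 7.21 and 6.74% in cKO and 13.4 and 15.8% in Flox libraries of cells. Again no cKO library reached a Flox library. Cd72, the inhibitory receptor, stood at 95.3 and 82.9 CPM in cKO and 75.7 and 90.1 CPM in Flox libraries, where the groups overlapped. Fat3, the cadherin, ran the other way, at 326 and 272 CPM in cKO and 115 and 239.9 CPM in Flox libraries, with a UMI in 93.6 and 88.9% in cKO and 61.2 and 82.4% in Flox libraries of cells. Flox 1 had the lowest Fat3 level and the highest Igf1, Cd5l and Ch25h levels of the 4 libraries. Of the microglial genes of the rule, P2ry12, the purine receptor of surveying processes, stood at 709 and 795 CPM in cKO and 893 and 715 CPM in Flox libraries among the injury-activated cells, against 1372 and 1639 CPM in cKO and 2234 and 2324 CPM in Flox libraries among the other gated microglia. Siglech, a sialic acid-binding lectin, stood at 71.6 and 103 CPM in cKO and 153 and 101 CPM in Flox libraries, against 337 and 463 CPM in cKO and 809.7 and 749 CPM in Flox libraries. Both were lower in the injury-activated cells in 4 of 4 libraries. Both are also genes of the microglial gate, and the other gated microglia were shallower. A shallower cell needs a larger part of its UMIs from the microglial genes to pass, so the gate itself favors this direction. The part of the gate in these differences was not tested.

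**Figure D1:**
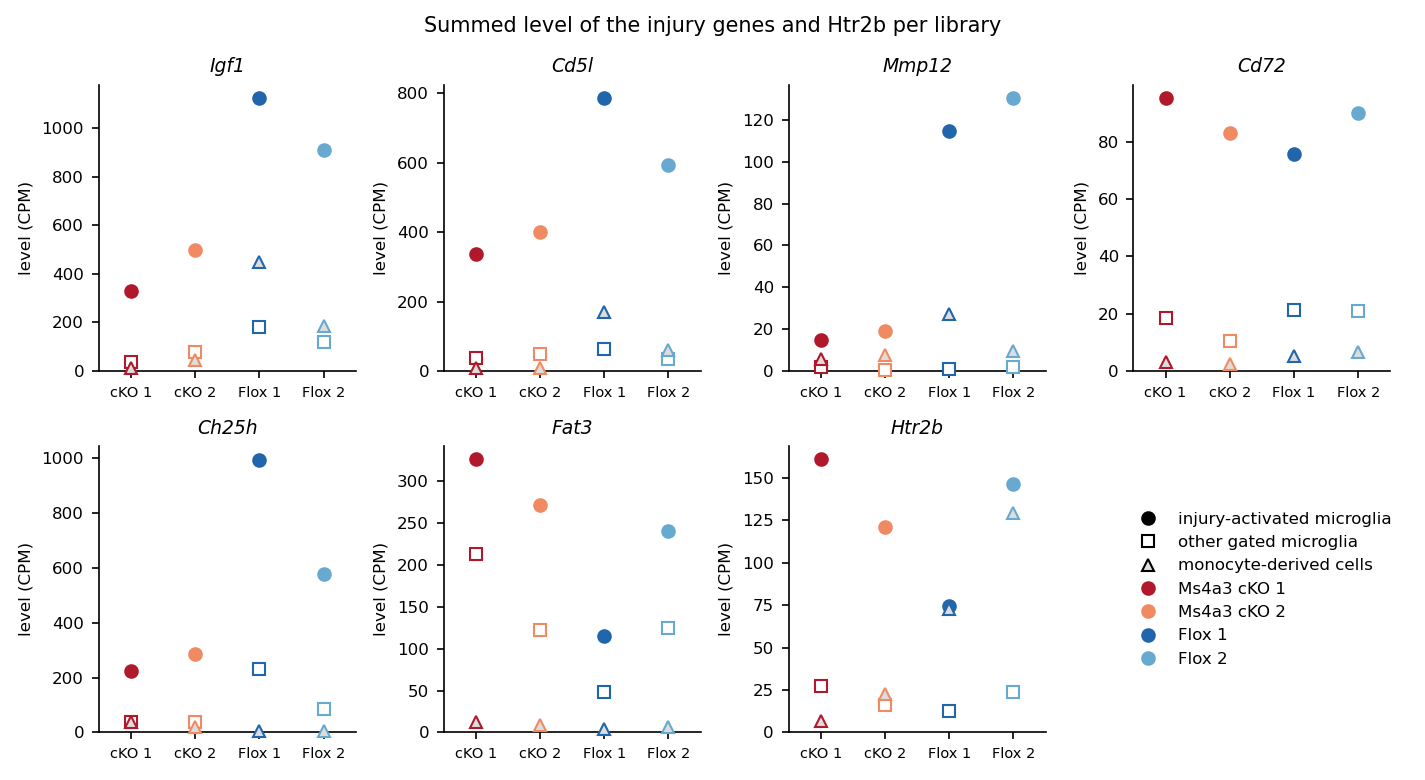
Level in CPM of the 6 injury genes of the rule and of Htr2b, 1 point per library (Ms4a3 cKO left, Flox right), in injury-activated, other gated and monocyte-derived cells. Igf1, Cd5l, Ch25h and Mmp12 lie lower in both Ms4a3 cKO libraries than in both Flox libraries among injury-activated cells, and Fat3 lies higher in both.

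Cells with exactly 3 injury genes made up 247 of 513 and 425 of 875 injury-activated cells in cKO libraries, and 599 of 1141 and 326 of 773 in Flox libraries. All 6 genes were seen together in 8 and 12 cells in cKO and 31 and 38 cells in Flox libraries. Of 42 combinations of 3 or more genes, 40 occurred. The commonest was Igf1, Cd5l, Ch25h and Fat3, in 377 cells, which were 7.80 and 10.3% of the injury-activated cells in cKO and 12.3 and 13.8% in Flox libraries. Igf1, Cd5l and Fat3 without the others followed with 373 cells, 15.01 and 18.2% in cKO and 5.87 and 9.06% in Flox libraries. This pattern, with Fat3 and without Ch25h, was a larger part in both cKO libraries than in both Flox libraries. Just outside the threshold, cells with 2 injury genes numbered 357 and 511 in cKO and 766 and 411 in Flox libraries, with a median depth of 6988 and 7349 UMIs in cKO and 6888 and 6932 UMIs in Flox libraries. Just inside it, cells with 3 had 8977 and 9321 UMIs in cKO and 8229 and 8648 UMIs in Flox libraries. Igf1 stood at 283 and 460 CPM in cKO and 802 and 658 CPM in Flox libraries with 3 injury genes, against 136 and 262 CPM in cKO and 451 and 316 CPM in Flox libraries with 2. Spp1 stood at 13674 and 10263 CPM in cKO and 5748 and 10275 CPM in Flox libraries with 3, against 7803 and 8128 CPM in cKO and 4891 and 5208 CPM in Flox libraries with 2.

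**Figure D2:**
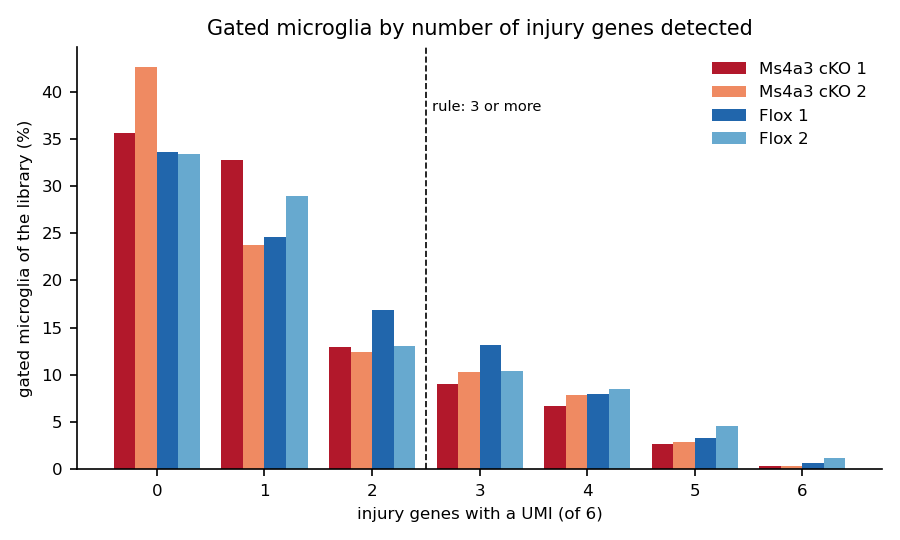
Percent of gated microglia by the number of injury genes with a UMI, 1 bar per library, Ms4a3 cKO and Flox. The injury-activated cells are those with 3 or more genes, 18.6 and 21.3% of gated microglia in cKO and 25.1 and 24.6% in Flox libraries.

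Mmp12 was detected in few of the injury-activated cells, 37 and 59 in cKO and 153 and 122 in Flox libraries. Its UMIs were concentrated, since the 10 cells with the most held 53.8 and 61.2% of them in cKO and 42.5 and 58.0% in Flox libraries, and a single cell held up to 6 and 34 UMIs in cKO and 99 and 161 UMIs in Flox libraries. A split by Mmp12, chosen after the values were seen, gave cells with Mmp12 a median of 11954 and 12664 UMIs in cKO and 12624 and 12751 in Flox libraries, against 10024 and 10152.5 in cKO and 8609 and 9747 in Flox libraries in those without. Gpnmb, a lysosomal glycoprotein of lipid-laden phagocytes, stood at 367 and 454 CPM in cKO and 1686 and 732 CPM in Flox libraries in the cells with Mmp12, against 151 and 155 CPM in cKO and 592 and 416 CPM in Flox libraries in those without. Adam8, a surface metalloprotease, stood at 457 and 448 CPM in cKO and 246 and 483 CPM in Flox libraries in the cells with Mmp12, against 272 and 181 CPM in cKO and 52.2 and 138 CPM in Flox libraries in those without. Cd36, a scavenger receptor for oxidized lipids, stood at 45.0 and 124 CPM in cKO and 193 and 109 CPM in Flox libraries in the cells with Mmp12, against 27.2 and 23.8 CPM in cKO and 57.4 and 46.8 CPM in Flox libraries in those without. All 3 were higher with Mmp12 in 4 of 4 libraries. The cells with Mmp12 had a median of 5 injury genes in every library, Mmp12 included. Those without had 4 and 3 in cKO and 3 and 4 in Flox libraries. These levels were not thinned, and the share of all genes higher with Mmp12 was not computed. The part of depth and of the other injury genes was not tested. Cx3cr1, the fractalkine receptor of homeostatic microglia, stood at 807 and 899 CPM in cKO and 1817 and 1179 CPM in Flox libraries in the cells with Mmp12, against 1249 and 1685 CPM in cKO and 2708 and 2395 CPM in Flox libraries in those without, lower in 4 of 4.

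Injury-activated cells made up 18.6% (exact 95% interval 17.2 to 20.1) and 21.3% (20.0 to 22.5) of gated microglia in the cKO libraries, against 25.1% (23.8 to 26.3) and 24.6% (23.1 to 26.2) in the Flox libraries, where intervals cover counting error only. The means were 19.95 ± 1.85% in cKO and 24.8 ± 0.307% in Flox (SD, n = 2 each), a difference of -4.89 percentage points, and the groups did not overlap. The share rests on the genes of the rule and is a description. Thinned to 2000 UMIs, which left out 46 to 106 shallower cells per library, the shares were 3.66 and 5.46% in cKO and 9.45 and 9.005% in Flox libraries. As a share of all kept barcodes they were 3.36 and 5.599% in cKO and 8.44 and 4.68% in Flox libraries, where the groups overlapped. A background class held cells with 3 or more of 4 oligodendrocyte genes and no UMI of Cldn5, the 5 microglial or the 6 monocyte and macrophage genes. It numbered 535 and 1077 cells in cKO and 252 and 608 in Flox libraries. Their median depth was 3560 and 3534 UMIs in cKO and 6400 and 5196.5 UMIs in Flox libraries. Of these cells, 0 and 0% in cKO and 0 and 0.164% in Flox libraries had 3 or more injury genes. The counts of 0 allow shares of up to 0.561 and 0.279% in cKO and 1.19% in Flox 1. Since cells with microglial or macrophage UMIs were left out of this class, its shares can be too low and do not gauge free RNA.

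Beyond the rule, Htr2b, Igf2r, Spp1 and Lpl were among the genes highest in injury-activated over other gated microglia, and Klf4 among the lowest. Of 3727 genes with at least 50 CPM, 1239 (33.2%) were higher in injury-activated cells in 4 of 4 libraries and 1678 (45%) lower, and the median log2 ratio over these genes was -0.086. A log2 ratio beyond 1 was seen for 83 genes that were higher and 127 that were lower, and 3566 of the 3727 kept their sign after thinning. The named genes had the largest median ratios in either direction. Spp1, osteopontin, a secreted matrix protein, stood at 14456 and 12537 CPM in cKO and 9507 and 16550.2 CPM in Flox libraries among the injury-activated cells, against 3119 and 2712 CPM in cKO and 2509 and 2369.6 CPM in Flox libraries among the other gated microglia, a median log2 ratio of 2.21. Lpl, lipoprotein lipase, stood at 706 and 945 CPM in cKO and 2280.0 and 1798 CPM in Flox libraries among the injury-activated cells, against 225 and 321 CPM in cKO and 579 and 357 CPM in Flox libraries among the other gated microglia, a median of 1.81. The lowest injury-activated value exceeded the highest value of the other gated microglia for both genes. In the monocyte-derived cells Spp1 stood at 2015 and 5435 CPM in cKO and 30972 and 9147 CPM in Flox libraries. Lpl stood there at 58.0 and 121 CPM in cKO and 2175 and 982 CPM in Flox libraries.

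Igf2r, the mannose phosphate receptor that delivers enzymes to lysosomes and takes up Igf2, ranged over 115 to 165 CPM, against 21.7 to 29.8 CPM in other gated microglia. Adam8 ranged over 88.2 to 286 CPM, against 23.8 to 72.9 CPM, Msr1, the class A scavenger receptor, over 326 to 1286 CPM, against 88.1 to 617 CPM, and Lgals3, a galectin of phagocytes, over 71.6 to 306 CPM, against 28.0 to 87.3 CPM. Dab2, an endocytic adaptor, ranged over 584 to 1155 CPM, against 159 to 515 CPM, Adcy3, an adenylate cyclase, over 53.5 to 82.9 CPM, against 11.7 to 27.1 CPM, and Plxnc1, a semaphorin receptor, over 39.0 to 94.7 CPM, against 7.87 to 33.7 CPM. In the monocyte-derived cells Igf2r ranged over 123 to 163 CPM, Adam8 over 240 to 373, Msr1 over 717 to 1062 and Lgals3 over 330 to 758 CPM. Dab2 ranged there over 271 to 578 CPM, Adcy3 over 5.07 to 27.5 and Plxnc1 over 42.2 to 154 CPM. The part of RNA from monocyte-derived cells in these ratios was not tested. Pianp, Nlrc3, Lilr4b, Serpinb6a and Ctla2a completed the 15 highest, with median log2 ratios of 2.05, 2.03, 1.97, 1.71 and 1.65. Lilr4b has near-identical relatives, so its count is uncertain. Among the lower genes, Klf4, a transcription factor of quiescent macrophages, ranged over 78.1 to 130.5 CPM, against 241 to 1289 CPM, and Ddit4, an inhibitor of growth signaling through mTOR, over 3.91 to 24.6 CPM, against 17.8 to 151 CPM. Slc2a5, the fructose transporter typical of microglia, ranged over 9.53 to 26.1 CPM, against 42.9 to 109 CPM, and Ccnd3, a D-type cyclin, over 10.1 to 62.2 CPM, against 48.1 to 186 CPM. Atp8a2, Ighm, Gbp7, Col27a1 and Abca9 were also lower in 4 of 4, with medians of -2.29, -2.23, -1.89, -1.82 and -1.79. The summed level of 6 oligodendrocyte markers was 135 and 199 CPM in cKO and 369 and 412 CPM in Flox libraries, against 366 and 503 CPM in cKO and 432 and 1355 CPM in Flox libraries in other gated microglia. Their part in the lower values was not tested.

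**Figure D3:**
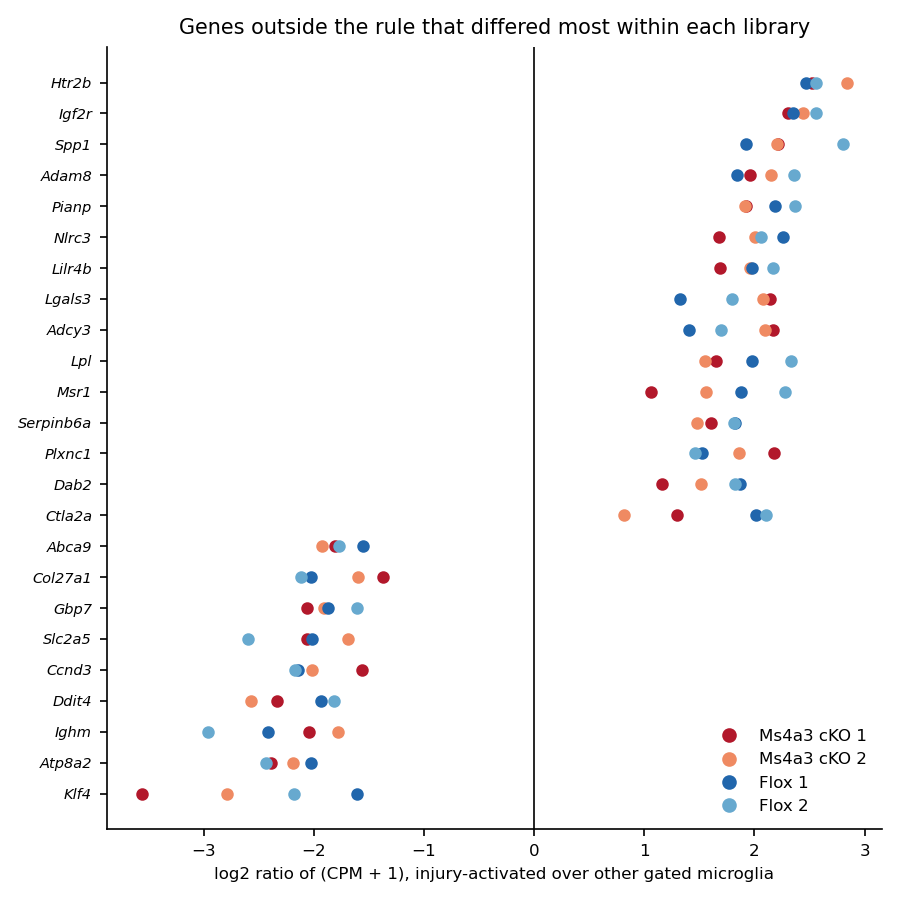
Log2 ratio of injury-activated over other gated microglia for the genes named by size, 1 point per library, Ms4a3 cKO and Flox. Every named gene lies on 1 side of 0 in all 4 libraries.

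Gene lists were read against 9079 genes with at least 5 CPM, of which 27.6% were higher in 4 of 4 libraries, 40.8% lower, with a median log2 ratio of -0.094. Among disease-associated microglia genes, 19 of 24 were higher in 4 of 4 and 0 lower, with a median of 0.84. Cd68, a lysosomal membrane protein of phagocytes, ranged over 644 to 739 CPM, against 241 to 298 CPM in other gated microglia, Fabp5, a fatty acid chaperone, over 364 to 777 CPM, against 122 to 419 CPM, and Trem2, the lipid-sensing receptor, over 476 to 1027 CPM, against 373 to 907 CPM. Of lipid uptake, storage and efflux genes, 13 of 18 were higher and 1 lower, with a median of 0.39, led beside Lpl and Msr1 by Plin2, the lipid droplet coat protein, at 593 to 897 CPM, against 206 to 272 CPM. Cholesterol synthesis was mixed, with 2 of 8 higher, 3 lower and a median of -0.23. Lysosome and cathepsin genes were higher for 12 of 20 and lower for 4, with a median of 0.27. Ctsb, a cathepsin, ranged over 15835 to 20811 CPM, against 6799 to 10117 CPM, while Ctss, another cathepsin, ranged over 7718 to 12119 CPM, against 11879.5 to 17912 CPM.

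Metabolic and replication genes also stood higher. Of 15 nuclear-encoded respiratory chain genes, 13 were higher in 4 of 4 libraries and 0 lower, with a median log2 ratio of 0.58, and of 14 glycolysis and hypoxia genes 9 were higher and 3 lower, with a median of 0.36. Pkm, pyruvate kinase, ranged over 249 to 312 CPM, against 118 to 139.8 CPM in other gated microglia. Of 14 oxidative stress defense genes, 11 were higher and 0 lower, with Prdx1, a peroxiredoxin, at 918 to 1171 CPM, against 445 to 610.1 CPM and Hmox1, the heme-degrading enzyme, at 231 to 466 CPM, against 164 to 226 CPM. Of 14 DNA replication genes, 14 were higher, with a median of 1.15 and, after thinning, 1.10. Mcm5, a subunit of the replicative helicase, stood at 24.5 and 17.4 CPM in cKO and 26.0 and 20.4 CPM in Flox libraries among the injury-activated cells, against 5.57 and 5.08 CPM in cKO and 11.5 and 4.65 CPM in Flox libraries among the other gated microglia. The rule admits 1 of 6 cycling genes, and 1 was detected in 34.1 and 31.4% of injury-activated cells in cKO and 20.0 and 33.5% in Flox libraries, against 11.9 and 12.7% in cKO and 10.7 and 15.4% in Flox libraries of other gated microglia. Their part in the replication genes was not tested.

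Other groups stood lower. Of 18 homeostatic microglia genes outside the rule, 12 were lower in 4 of 4 libraries and 3 higher, with a median of -0.66. Cx3cr1 ranged over 1214 to 2543 CPM, against 1870.0 to 3287 CPM in other gated microglia and Csf1r, the receptor microglia need for survival, over 971 to 1218 CPM, against 1625 to 2109.7 CPM, while Fcrls, an Fc receptor-like protein of microglia, at 1220.3 to 2749 CPM, against 531 to 1588 CPM was higher in 4 of 4. Of 18 transcription factors of macrophage and microglial identity, 13 were lower and 1, Tfec, was higher. Of 14 immediate-early and dissociation genes, 13 were lower and 0 higher, with a median of -0.95. Jun, a subunit of AP-1, stood at 902 and 1011 CPM in cKO and 1111 and 965 CPM in Flox libraries among the injury-activated cells, against 2557 and 2382 CPM in cKO and 2521 and 2507 CPM in Flox libraries among the other gated microglia. Glucocorticoid-responsive genes were lower for 13 of 16, with a median of -0.98, and the 2 that were higher were the metallothioneins Mt1 and Mt2.

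For immune signaling genes, the share that was lower lay near the 40.8% of all genes in the cytokine and interferon lists and above it in the class II list. Of 22 cytokine and chemokine genes, 9 were lower and 3 higher, with a median of -0.32. Il1b, the pro-inflammatory interleukin, ranged over 76.8 to 259 CPM, against 148 to 415 CPM in other gated microglia, whereas Cxcl2, a neutrophil chemokine, at 84.9 to 216 CPM, against 43.8 to 168 CPM was higher in 4 of 4. Of 20 interferon response genes, 7 were lower and 0 higher, and of 5 MHC class II genes 4 were lower and 0 higher, with medians of -0.43 and -0.77. Cd74, the class II invariant chain, ranged over 7.96 to 31.3 CPM, against 15.1 to 106 CPM. Dendritic cell markers, which accompany class II genes, summed to 6.54 and 4.52 CPM in cKO and 4.82 and 7.50 CPM in Flox libraries, against 12.8 and 16.0 CPM in cKO and 14.5 and 18.9 CPM in Flox libraries, and their part was not tested. Complement genes split, with 4 of 10 higher (C3ar1 and the 3 subunits of C1q) and 4 lower. Among 8 repair macrophage genes 1 was higher and 5 lower, with a median of -0.51, and -0.12 after thinning. In the growth factor and IGF list 5 of 13 were higher, Igf2r among them, and 4 lower, with a median of -0.39, and in the matrix protease list 5 of 12 were higher and 2 lower.

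Over all gated microglia thinned to 2000 UMIs, levels followed the number of injury genes counted before thinning. Spp1 stood at 545 and 318 CPM in cKO and 338 and 559.8 CPM in Flox libraries with 0 injury genes, and at 18573 and 15535 CPM in cKO and 12864 and 23128 CPM in Flox libraries with 5 or 6. Htr2b stood at 1.58 and 2.69 CPM in cKO and 0.677 and 6.08 CPM in Flox libraries with 0 injury genes, and at 232 and 141 CPM in cKO and 119 and 217 CPM in Flox libraries with 5 or 6. Both increased at every step of the number of injury genes in 4 of 4 libraries. Cx3cr1 stood at 2085 and 2489.8 CPM in cKO and 3863 and 3453 CPM in Flox libraries with 0 injury genes, and at 1079 and 1535 CPM in cKO and 2228 and 1836 CPM in Flox libraries with 5 or 6. It decreased at every step in 4 of 4. Klf4 stood at 2144 and 934 CPM in cKO and 323 and 866 CPM in Flox libraries with 0 injury genes, and at 61.0 and 74.2 CPM in cKO and 38.9 and 80.6 CPM in Flox libraries with 5 or 6. Apoe ran differently: it was highest at 2 injury genes in both cKO libraries, at 1616 and 1596 CPM, and at 4 in both Flox libraries, at 2776 and 1839 CPM, and stood at 939 and 1000 CPM in cKO and 2350 and 1575 CPM in Flox libraries with 5 or 6. Each bin held 82 to 1674 cells, and since deeper cells enter the higher bins, the order is a description.

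**Figure D4:**
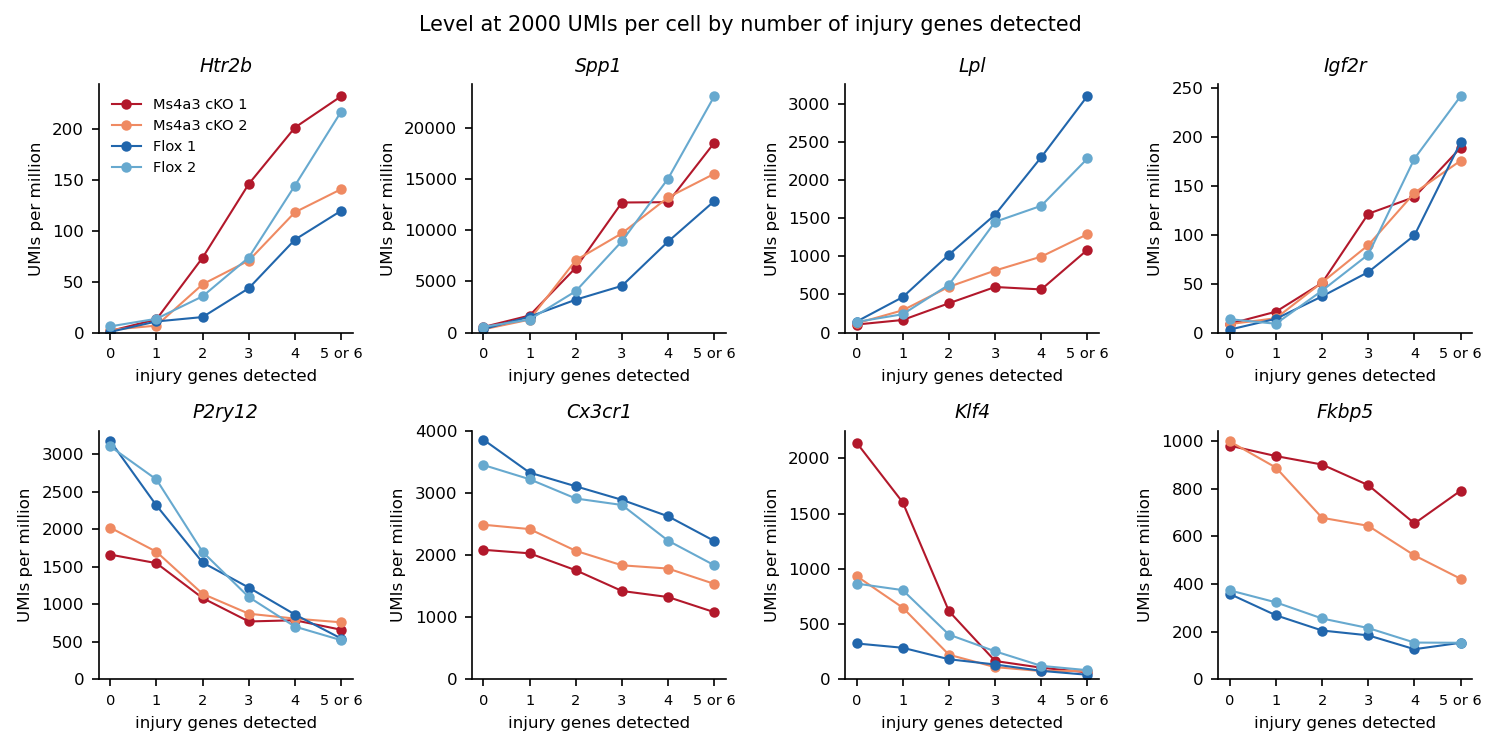
Level in CPM, after thinning each cell to 2000 UMIs, against the number of injury genes with a UMI (0 to 6, the last bin holding 5 or 6), 1 line per library, Ms4a3 cKO and Flox. Htr2b and Spp1 increase at every step in all 4 libraries, Cx3cr1 decreases at every step, and Fkbp5 lies higher in both cKO libraries in every bin.

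Htr2b, the gene the study set out to delete, had the largest ratio of injury-activated over other gated microglia among genes outside the rule with at least 50 CPM. It stood at 161 and 121 CPM in cKO and 74.8 and 146 CPM in Flox libraries among the injury-activated cells, against 27.2 and 16.0 CPM in cKO and 12.7 and 24.1 CPM in Flox libraries among the other gated microglia, a median log2 ratio of 2.54, and 3.11 after thinning. A UMI was found in 58.7 and 47.3% of injury-activated cells in cKO and 37.3 and 50.6% in Flox libraries, against 6.07 and 4.91% in cKO and 4.87 and 6.13% in Flox libraries of other gated microglia. At 2000 UMIs per cell these shares were 26.3 and 15.9% in cKO and 12.02 and 20.6% in Flox libraries, against 2.74 and 1.95% in cKO and 1.29 and 2.54% in Flox libraries. The oligodendrocyte-like background cells had a median of 3560 and 3534 UMIs in cKO and 6400 and 5196.5 UMIs in Flox libraries. They showed a Htr2b UMI in 0.374 and 0.836% in cKO and 0 and 1.48% in Flox libraries. These shares can be too low, since cells with microglial or macrophage UMIs were left out of the class. Between the genotypes the injury-activated cells overlapped. The log2 ratio of cKO over Flox was 0.27 with an SE of 0.29 (edgeR adjusted p = 0.754, n = 2 each). With only 1 Flox library in the fit, this ratio was -0.079 without Flox 1 and 0.71 without Flox 2. In the monocyte-derived cells Htr2b stood at 6.89 and 22.9 CPM in cKO and 73.0 and 129 CPM in Flox libraries, where the groups did not overlap. The floxed part of Htr2b is not given in the sources used here, and 3′ reads outside a deleted part would check nothing. Ms4a3, the driver gene, had 0 UMIs in the gated microglia, which in the injury-activated cells allows up to 0.560 and 0.323 CPM in cKO and 0.273 and 0.369 CPM in Flox libraries. Of the other serotonin genes, Maoa, which degrades serotonin, stood at 16.3 and 15.7 CPM in cKO and 11.2 and 13.5 CPM in Flox libraries among the injury-activated cells, against 13.3 and 12.4 CPM in cKO and 5.81 and 12.9 CPM in Flox libraries among the other gated microglia. Htr2c, another receptor, stood at 0.187 and 4.30 CPM in cKO and 0.637 and 5.29 CPM in Flox libraries among the injury-activated cells, against 4.33 and 6.11 CPM in cKO and 1.01 and 8.74 CPM in Flox libraries among the other gated microglia.

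The genotypes were compared within the injury-activated cells on UMIs summed per library. Of 11685 genes outside the rule, 0 (0%) passed edgeR's quasi-likelihood test at an adjusted p of 0.05 in either direction. At an unadjusted p under 0.05 567 (4.85%) were higher and 594 (5.08%) lower in cKO, and DESeq2 called 83 higher and 68 lower. Both cKO libraries lay above both Flox libraries for 3429 genes (29.3%) and below for 1826 (15.6%). The number of calls depended on the Flox libraries: it increased when either was left out, which leaves 1 Flox library, and did not change when either cKO library was left out. The genes named next had the smallest p in each direction among those with at least 20 CPM and no overlap between the genotypes, and none passed.

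The smallest p among higher values belonged to Fkbp5, whose product binds and restrains the glucocorticoid receptor, at 696 and 579 CPM in cKO, against 157 and 172 CPM in Flox libraries, or 1.85 on the log2 scale with an SE of 0.16 (adjusted p = 0.0912 by edgeR, n = 2 each). Lifr, the receptor for leukemia inhibitory factor, stood at 61.1 and 62.2 CPM in cKO, against 11.8 and 16.2 CPM in Flox libraries. Klf9, a transcription factor induced by glucocorticoids, stood at 72.3 and 45.2 CPM in cKO, against 5.09 and 7.38 CPM in Flox libraries, with log2 fold changes of 2.05 and 3.14 for these genes. Both cKO libraries lay above both Flox libraries in each case. Among the genes named here were 3 of the Ms4a family of tetraspanning membrane proteins, Ms4a6b at 603 and 486 CPM in cKO, against 165 and 199 CPM in Flox libraries, Ms4a6c at 1828 and 1610.3 CPM in cKO, against 525 and 672 CPM in Flox libraries and Ms4a4a at 59.0 and 46.4 CPM in cKO, against 2.00 and 7.13 CPM in Flox libraries. The driver gene Ms4a3 belongs to the same family, whose genes are alike in sequence, so how reads were divided among them is uncertain. Hgsnat, a lysosomal acetyltransferase, stood at 321 and 299 CPM in cKO, against 63.2 and 109 CPM in Flox libraries, and Il15ra, an interleukin receptor chain, at 117 and 80.5 CPM in cKO, against 27.9 and 27.1 CPM in Flox libraries. Sult1a1, a sulfotransferase, and Apod, an apolipoprotein, had log2 fold changes of 1.96 and 1.44.

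Among lower values, Plxnc1 stood at 39.0 and 39.0 CPM in cKO, against 91.1 and 94.7 CPM in Flox libraries, or -1.35 on the log2 scale with an SE of 0.14 (adjusted p = 0.100 by edgeR, n = 2 each). Gpnmb stood at 168 and 179 CPM in cKO, against 794 and 479 CPM in Flox libraries, and Lpl at 706 and 945 CPM in cKO, against 2280.0 and 1798 CPM in Flox libraries, with log2 fold changes of -1.999 and -1.42 and adjusted p of 0.218 and 0.260 by edgeR. These 3 were also among the genes that stood higher in injury-activated than in other gated microglia in 4 of 4 libraries. H2-Ab1, a class II chain, stood at 10.3 and 13.7 CPM in cKO, against 78.7 and 42.8 CPM in Flox libraries. Fabp3, a fatty acid chaperone, stood at 20.4 and 23.6 CPM in cKO, against 74.2 and 50.7 CPM in Flox libraries, Myof, a membrane repair protein, at 22.8 and 18.9 CPM in cKO, against 47.7 and 51.6 CPM in Flox libraries, and Fscn1, an actin bundler, at 12.3 and 16.6 CPM in cKO, against 32.1 and 38.9 CPM in Flox libraries. Etl4 and Serf1 had log2 fold changes of -1.76 and -1.44.

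No list gene passed the test over all genes, and lists are given by counts at an unadjusted p under 0.05. Over all genes tested, 4.85% were higher and 5.08% lower in cKO at this p, with a median log2 fold change of -0.005. Of 24 disease-associated microglia genes, 0 were higher and 10 lower in cKO, with a median of -0.62. Among them, Apoe, the lipid carrier, stood at 1418 and 1413 CPM in cKO, against 2625 and 1678 CPM in Flox libraries, and Csf1, the ligand of Csf1r, at 191 and 194 CPM in cKO, against 334 and 294 CPM in Flox libraries. Of 21 lipid genes 0 were higher and 5 lower, with Lipa, the lysosomal acid lipase, at 424 and 426 CPM in cKO, against 871 and 739 CPM in Flox libraries and Cd36 at 28.6 and 31.9 CPM in cKO, against 82.5 and 59.3 CPM in Flox libraries, and of 12 cholesterol synthesis genes 0 reached it either way, with a median of -0.57. Of 18 homeostatic genes 1 was higher and 4 lower, with a median of -0.36. Cx3cr1 stood at 1214 and 1621 CPM in cKO, against 2543 and 2150.1 CPM in Flox libraries. Sparc, a matrix protein of resting microglia, stood at 1352 and 1566 CPM in cKO, against 2444 and 1990.5 CPM in Flox libraries. In the disease-associated and homeostatic lists, which stood on opposite sides of the contrast between injury-activated and other gated microglia, most genes past this p lay lower in cKO. Among the other gated microglia, 0 of 24 disease-associated genes were higher and 10 lower, with a median of -0.58. Of 18 homeostatic genes there, 0 were higher and 8 lower, with a median of -0.69. Lower values in these lists were thus also seen in the other gated microglia. The difference of the cKO over Flox ratio between the classes was tested as described further below. That ratio was higher in injury-activated cells for 5 of 18 homeostatic and 2 of 24 disease-associated genes at an adjusted p of 0.05 (edgeR). It was lower for 0 genes of either list. Of all genes tested, 0.426% were higher and 0.221% lower.

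Of 20 interferon response genes 0 were higher and 9 lower, with a median of -1.04. Ifit2, an antiviral effector, stood at 74.9 and 71.1 CPM in cKO, against 155 and 118 CPM in Flox libraries. The sum of this list was 735 and 1051 CPM in cKO and 1856 and 1002 CPM in Flox libraries, highest in Flox 1, and the groups overlapped. Of 6 class II genes 0 were higher and 4 lower, with a median of -2.11, and the sum of the list was 39.2 and 52.3 CPM in cKO and 217 and 167 CPM in Flox libraries. The 6 dendritic markers, with 3 of them at 0 in each cKO library and 1 in each Flox library, stood at the sums given above, and their part was not tested. Cytokine genes had 0 of 21 higher and 3 lower, and MHC class I genes 0 of 9 either way. Among the other gated microglia, 0 of 20 interferon response genes were higher and 7 lower, with a median of -1.37. Of 7 class II genes there, 0 were higher and 5 lower, with a median of -3.57, and of 24 cytokine genes 1 was higher and 6 lower.

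Of 16 glucocorticoid-responsive genes 9 were higher and 1 lower in cKO, with a median of 1.56. Ddit4 stood at 21.9 and 24.6 CPM in cKO, against 3.91 and 4.80 CPM in Flox libraries, and Zbtb16, a hormone-induced zinc finger protein, at 14.2 and 9.90 CPM in cKO, against 0.637 and 1.23 CPM in Flox libraries. Pik3ip1, an inhibitor of phosphoinositide kinase, stood at 20.6 and 19.3 CPM in cKO, against 3.73 and 3.81 CPM in Flox libraries, and Mt2, a zinc-binding metallothionein, at 201 and 143 CPM in cKO, against 14.8 and 63.5 CPM in Flox libraries. In all 4 both cKO libraries lay above both Flox libraries. The lower one was Dusp1, a phosphatase of stress kinases, at 1054 and 1141 CPM in cKO, against 1717 and 1568 CPM in Flox libraries. The time of day at which brains were collected is not given in the sources used here. Of 14 immediate-early genes 1 was higher and 5 lower, with Fos at 1476 and 1840.2 CPM in cKO, against 3005 and 2592 CPM in Flox libraries and Fosb at 50.4 and 80.1 CPM in cKO, against 138 and 210.0 CPM in Flox libraries. Among the other gated microglia, 8 of 17 glucocorticoid-responsive genes were higher and 0 lower, with a median of 0.51. Of 14 immediate-early genes there, 0 were higher and 1 lower.

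Of 9 repair macrophage genes 4 were higher and 0 lower, with a median of 1.07. Arg1, which uses up arginine, stood at 222 and 99.3 CPM in cKO, against 0.546 and 28.3 CPM in Flox libraries, and Thbs1, thrombospondin, at 461 and 413 CPM in cKO, against 53.7 and 171 CPM in Flox libraries. In the monocyte-derived cells the sum of this list was 18939.8 and 13844 CPM in cKO and 1865 and 6026 CPM in Flox libraries, against 1249.7 and 939.8 CPM in cKO and 287 and 687 CPM in Flox libraries in the injury-activated cells, and the part of RNA from monocyte-derived cells was not tested. In the growth factor and IGF list 3 of 15 were higher and 4 lower, among them Pdgfa, a growth factor for oligodendrocyte precursors, at 82.0 and 74.0 CPM in cKO, against 115 and 108 CPM in Flox libraries and Igfbp5, an IGF-binding protein, at 0.560 and 2.15 CPM in cKO, against 40.4 and 15.1 CPM in Flox libraries. Plau, the urokinase protease of the matrix list, stood at 86.1 and 121 CPM in cKO, against 571 and 239 CPM in Flox libraries, and 2 of 13 genes of that list were higher and 2 lower. Slc2a3, a neuronal-type glucose transporter, stood at 31.0 and 33.1 CPM in cKO, against 11.7 and 16.0 CPM in Flox libraries, in a glycolysis list with 2 of 16 higher and 4 lower. Respiratory chain and DNA replication genes had 0 of 16 and 0 of 15 either way, with medians of 0.002 and 0.079. Complement had 2 of 12 higher and 0 lower, and lysosome genes 1 of 20 higher and 3 lower. Ddc, the decarboxylase that makes serotonin, was the 1 serotonin gene of 5 that was higher, and it was chosen after its value was seen. Among the other gated microglia, 1 of 9 repair macrophage genes was higher and 0 lower, with a median of 0.23.

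Whether the genotype effect differed between injury-activated and other gated microglia was tested as an interaction with library as a block. Among the other gated microglia alone 0 of 13253 genes (0% either way) passed, with 628 (4.74%) higher and 723 (5.46%) lower at an unadjusted p under 0.05, and DESeq2 called 100 and 137. Of 13139 genes outside the rule, the cKO over Flox ratio was higher in injury-activated cells for 56 (0.426%) and lower for 29 (0.221%) at an adjusted p of 0.05, and at an unadjusted p under 0.05 it was higher for 859 (6.54%) and lower for 465 (3.54%). For 60 of the 85 past the adjusted p the ratio lay nearer 0 in the injury-activated cells. Of the 56, 45 had a ratio below 0 in the other gated microglia, and of the 29, 25 had one above 0. DESeq2 called 47 and 32. The 6 genes with the smallest p in each direction, a rule chosen after the values were seen, are given with both classes.

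Egr2, an immediate-early transcription factor, stood in injury-activated cells at 68.2 and 67.6 CPM in cKO against 64.7 and 87.6 CPM in Flox libraries, and in other gated microglia at 64.2 and 70.2 CPM in cKO against 142 and 162 CPM in Flox libraries. The difference was 1.08 (edgeR adjusted p = 0.00851). The genotypes overlapped in the injury-activated cells and were apart in the others. Igf1r, the receptor of Igf1, stood in injury-activated cells at 106 and 91.3 CPM in cKO against 58.9 and 105 CPM in Flox libraries, and in other gated microglia at 219 and 174 CPM in cKO against 43.0 and 103 CPM in Flox libraries. The difference was -1.17 (edgeR adjusted p = 0.00851). Here too the genotypes were apart only outside the injury-activated cells. Cd36 stood in injury-activated cells at 28.6 and 31.9 CPM in cKO against 82.5 and 59.3 CPM in Flox libraries, and in other gated microglia at 10.3 and 12.8 CPM in cKO against 77.7 and 45.9 CPM in Flox libraries, lower in cKO in both. Thbs1 stood in injury-activated cells at 461 and 413 CPM in cKO against 53.7 and 171 CPM in Flox libraries, and in other gated microglia at 367 and 275 CPM in cKO against 83.8 and 401 CPM in Flox libraries. It was the reverse case, with the genotypes apart in the injury-activated cells and overlapping in the others. Fn1, fibronectin, had a log2 fold change of 0.17 in injury-activated cells, against 1.57 in other gated microglia, Lilrb4a, an inhibitory receptor with near relatives, 0.47 against 1.52, and Zfp697 -0.11 against 0.98. Ctse, an endosomal cathepsin, had -1.49 against -0.46, and Tnfsf9, a costimulatory ligand, 1.42 against 2.26. In injury-activated cells Ctse stood at 62.6 and 80.8 CPM in cKO against 310 and 48.8 CPM in Flox libraries. In other gated microglia it stood at 72.9 and 101 CPM in cKO against 170 and 35.4 CPM in Flox libraries. The genotypes thus overlapped for Ctse in both classes, with Flox 1 highest and Flox 2 lowest. Ifi27l2a, an interferon-induced gene, had -0.34 against -1.46, Ccl9, a chemokine, 0.15 against -1.25, and Scamp5, a secretory carrier protein, 0.44 against -0.71. With injury genes counted at 2000 UMIs per cell, 7 of the 12 no longer passed. The difference was then 0.56 for Thbs1, against 1.46 at full depth, 0.73 for Ccl9, against 1.30, 0.77 for Scamp5, against 1.15, -0.64 for Zfp697, against -1.07, and -0.37 for Tnfsf9, against -0.80. For Egr2 it was 0.97, against 1.08, and for Cd36 1.05, against 1.23. Among gated cells with no UMI of the 6 monocyte and macrophage genes 4 did not pass, of which Scamp5 at 1.16, Zfp697 at -1.01 and Tnfsf9 at -0.80 kept their size, and Egr2 stood at 0.45. With 4 or more injury genes required, Egr2 at 1.14, Cd36 at 1.16, Ctse at -0.65 and Tnfsf9 at -0.41 did not pass, and with Fat3 left out of the rule Cd36 at 0.90, Ctse at -0.81 and Tnfsf9 at -0.46 did not. In fits that leave 1 library in a genotype, the difference for Tnfsf9 was -0.73 without Flox 2 and -0.78 without cKO 1, and it did not pass in either.

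**Figure D5:**
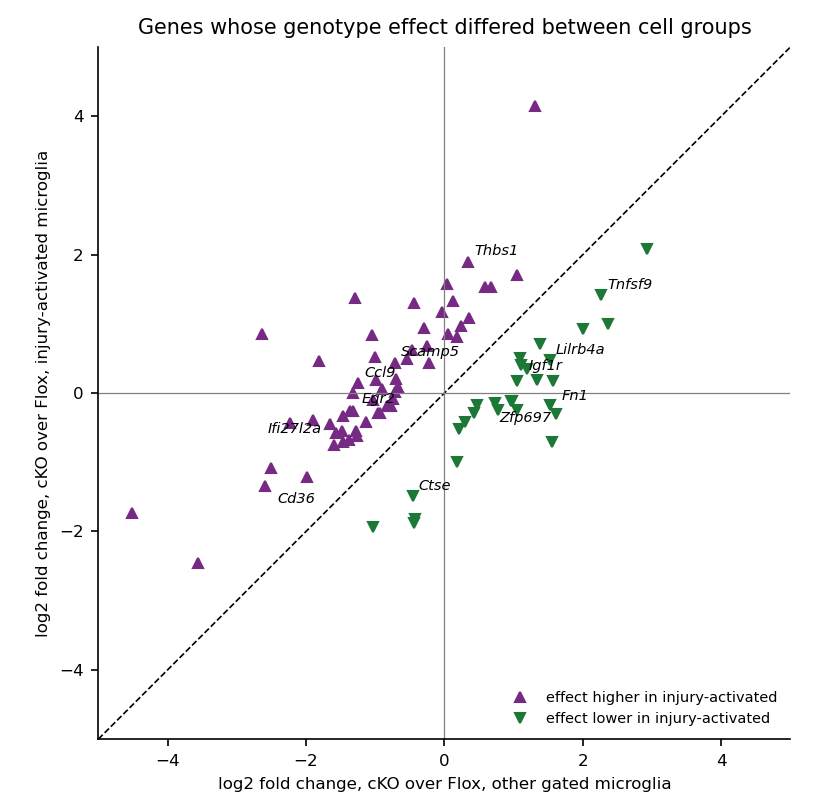
Log2 fold change of Ms4a3 cKO over Flox in injury-activated microglia (vertical) against that in other gated microglia (horizontal) for the 85 genes whose effect differed at an adjusted p of 0.05, 1 point per gene. The dashed line marks equal effects, with 56 genes above it and 29 below it, and the 12 genes named in the text are written beside their points.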

How the data were processed

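Single-cell 3′ libraries (BD Rhapsody, sequenced on a DNBSEQ-T7) were analysed from 2 Ms4a3 cKO and 2 Flox samples, grouped by their titles. The tools and build named per the submitters' processing notes are fastp 0.24.0, STARsolo and mm10, and the STARsolo version, gene annotation and filter on barcodes were not given in the sources used here. Per barcode, the authors deposited raw UMI counts for 31253 genes, without normalization, and library totals were 77580518 to 105566650 UMIs. Cells were gated as stated, and their UMIs were summed within each library and class so that the library is the replicate. Genotypes were compared with edgeR 4.0.16 in R 4.3.3 (quasi-likelihood F test, TMM scaling, filterByExpr, Benjamini-Hochberg adjustment over all genes). DESeq2 1.42.0 was the other tool. Fold changes are TMM-scaled and CPM are not. Standard errors were derived from the F statistic. Ratios between classes used a pseudocount of 1 CPM. Doublets were predicted with Scrublet (scanpy 1.11.5, with 6% expected) and kept. Thinning drew 2000 or 1000 UMIs per cell without replacement. The code was tested on simulated data.

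The members and gene lists were chosen with earlier results of these data known. Genes were named by the 15 highest and 10 lowest median ratios among genes with at least 50 CPM, and by the 10 smallest p per direction between genotypes among genes with at least 20 CPM, leaving out predicted and mitochondrially encoded genes. Some genes are not reported here. Examples within lists were named after their values were seen. Promoters came from RefSeq on GRCm38.p6, where 7 of 7 genes matched, and mm10 names the same build. Alternatives were other gates, filters, scalings, each library left out and the replicate number as a block.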

Additional observations from a re-analysis of the deposited data

Results flagged for a closer look

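Each of 12 genes had a cKO over Flox ratio that differed between injury-activated and other gated microglia in an interaction test (edgeR, adjusted p = 0.00851 to 0.0266, 2 libraries per genotype). On the log2 scale, the ratio was higher in the injury-activated cells by 1.46 for Thbs1, 1.30 for Ccl9, 1.23 for Cd36, 1.18 for Ifi27l2a, 1.15 for Scamp5 and 1.08 for Egr2. The difference was -1.29 for Fn1, -1.17 for Igf1r, -1.07 for Zfp697, -1.02 for Lilrb4a, -0.92 for Ctse and -0.80 for Tnfsf9, lower in the injury-activated cells. Both classes came from the same 4 libraries, and injury-activated cells were chosen on genes measured in them. With injury genes counted at 2000 UMIs per cell, 7 of the 12 no longer passed, and the difference for Thbs1 was 0.56. What lies behind these differences was not tested.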

How the results depend on the processing

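The count of genes called between genotypes in injury-activated microglia was 0 and ranged over 0 to 3453 with 1 library left out. It was 1 under 10% mitochondrial UMIs, 3 with 4 or more injury genes, 4 without Fat3, 4 with injury genes counted at 2000 UMIs, 764 with no low-count filter, 151 with DESeq2 and 18 with the replicate block. In other gated microglia it was 0, 4 to 2631 with 1 library left out, 931 with no filter, 237 with DESeq2 and 18 with the block. The 85 genes with a different effect became 83 to 262 with 1 library left out, 32 with 4 or more injury genes, 47 without Fat3, 27 with injury genes counted at 2000 UMIs, 41 with no monocyte-macrophage gene UMI, 361 with no filter and 262 with the replicate block. The cause was not tested. Replicates with the same number share only the number (r = -0.080 between their deviations), so the block is no pairing of the design. The share difference of -4.89 points became -2.08 of all kept barcodes, -2.28 thinned to 1000 UMIs, -2.77 with 4 or more injury genes, -7.15 with 2 or more and -6.55 without Fat3. Of 48 named genes, 47 kept the sign of their genotype effect under every alternative run, and Htr2b reversed to -0.079 without Flox 1, and stood at 0.71 without Flox 2. Fits with 1 library left out have 1 library in a genotype, so their calls rest on the spread within the other genotype. The 12 genes with a different effect kept their sign throughout. Limits are 2 libraries per genotype, of which the Flox libraries differed most, injury-activated cells that were deeper than the others, and a gate on detection, in which a missed UMI moves a cell out.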
